A study of Mus musculus with 19 samples.

Results

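Of the 8336 genes that carried extrachromosomal circular DNA (eccDNA) in mouse spinal cord, 36 were selected by name. They encode mitochondrial proteins of the respiratory chain, the ATP synthase, the mitochondrial ribosome, protein import, cristae, coenzyme Q synthesis or the calcium uniporter. They were taken by symbol, as every row of the gene table that begins with Nduf, Cox and a digit, Atp5, Uqcr, Sdha to Sdhd, Mrpl, Mrps, Timm, Tomm, Chchd, Coq and a digit, Micu or Mcu. EccDNAs are circles of chromosomal DNA that lie outside the chromosomes and can hold a stretch of a gene or a whole one. The study compared cervical spinal cord of 9 symptomatic male hSOD1G93A mice (ALS), kept as B6.Cg-Tg(SOD1*G93A)1Gur/J, which overexpress a mutant human SOD1 gene constitutively, with 10 male C57BL/6J control mice without the transgene. ALS mice were taken at 18 to 21 weeks of age, once motor symptoms had been scored, and controls were matched for age. Each animal gave 1 library, for which 400 ng of DNA were digested with exonuclease V for 7 days to remove linear DNA, followed by rolling circle amplification over 48 h. The tissue is a mixture of neurons, glia and vessel cells, and more circles per cell and more cells with circles cannot be told apart. These are measurements of DNA, so the labelled tissue could not be checked against expression markers.

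Mitochondria make most of the ATP of a neuron by passing electrons along complexes I to IV of the inner membrane and letting the proton gradient drive ATP synthase. A small circular genome inside the organelle encodes a few of these subunits, and all the others are encoded in the nucleus, made in the cytosol and imported through the TOM and TIM complexes. Damage to mitochondria of motor neurons, with swollen organelles and disturbed calcium uptake, is a known feature of the hSOD1G93A mouse. All 36 genes here are nuclear, and the circular mitochondrial genome itself was left out of the data by the authors.

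The level used throughout is log2(PpGC + 1). PpGC, the per-gene count of eccDNA, is the number of sequencing reads split across a circle junction, summed over all eccDNAs that overlap the gene and scaled up by how many times longer the longest annotated gene is. A value of 0 means that no eccDNA was found on the gene in that library, and a difference is the mean of the 9 ALS libraries minus the mean of the 10 control libraries on this log2 scale, zeros included, so it is not a fold change of circles. Dividing by the length factor returned a whole number of split reads for all 50 values above 0 of the 36 genes, from 2 to 331 reads with a median of 4.5, against a median of 7 over all genes. Since rolling circle amplification copies each circle many times, reads do not count molecules, and counting intervals are left out.

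ALS libraries carried more genes with an eccDNA in general. A library of the ALS group had eccDNA on 1301 ± 459 (SD, n = 9) genes, from 694 to 2204, and a control library on 243 ± 208 (SD, n = 10), from 57 to 723. Split reads on genes ranged from 73211 to 389835 in ALS and from 3583 to 122908 in control libraries. No scaling between libraries was applied, and sequencing depth per library is not part of the table. Every statement below on how often a gene was found therefore goes together with this difference in load, and its part in the values of single genes was not tested beyond the fit with the load as a covariate given below.

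Of the 36 genes, at least 1 was found on eccDNA in all 9 ALS libraries and in 4 of the 10 control libraries. The ALS libraries held 4.78 ± 3.03 (SD, n = 9) of the 36 genes, and the control libraries 0.7 ± 1.06 (SD, n = 10). In single ALS libraries the number was 4, 6, 11, 2, 2, 2, 3, 7 and 6 for ALS 1 to 9, and in the controls it was 1 for Control 1, 3 for Control 2, 2 for Control 8, 1 for Control 9 and 0 for the others. The groups overlapped, since Control 2 had more of these genes than ALS 4, 5 and 6. The ratio of the group means was 6.83, next to 5.35 for all genes of the table. The control mean rested on 7 gene and library pairs, 3 of them in Control 2, so this ratio depends on that library. Expressed as a share of all genes with an eccDNA in the same library, the mitochondrial genes made up 0.350 ± 0.141% (SD, n = 9) in ALS, from 0.180% to 0.541%, and 0.186 ± 0.275% (SD, n = 10) in controls, from 0% to 0.649%. Pooled over libraries the shares were 43 of 11710 (0.367%) and 7 of 2434 (0.288%). The difference between the mean shares was smaller than the SD of the controls.

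**Figure D1:**
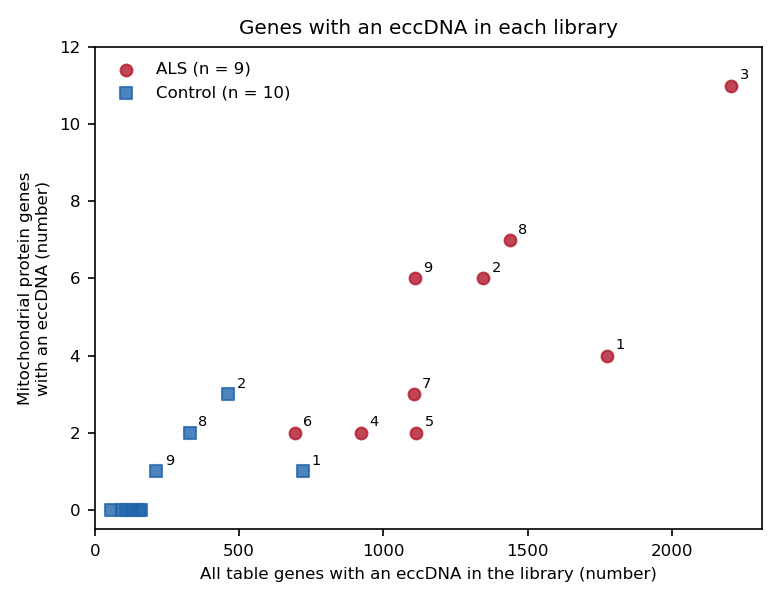
Number of the 36 mitochondrial protein genes with an eccDNA (vertical axis) against the number of all table genes with an eccDNA (horizontal axis). Points are the 9 ALS (circles) and 10 control (squares) libraries, with replicate numbers beside libraries that hold at least 1 of the 36. ALS 3, with 2204 genes, holds 11 of the 36, and the 6 control libraries at 0 all have at most 160 genes.

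No member was higher in ALS by the thresholds of the study's methods, a difference above 1 with a p under 0.01 by their test, taken here as two-sided, and none was lower. Over all 8336 genes, 111 (1.33%) were higher and 0 (0%) lower by this rule. At an unadjusted p under 0.05 with a higher mean in ALS, the methods' test gave 0 members and 350 genes in all, the exact permutation test gave 0 members and 310 genes (3.72%), and limma's moderated test gave 1 member, *Atp5o*, and 611 genes. The smallest p of a member by the methods' test was 0.0541 (*Atp5o*), so a one-sided reading of that test would call none of them either. The smallest exact permutation p of a member was 0.0867, with an adjusted p of 0.581 after Benjamini-Hochberg adjustment over all genes. The smallest adjusted exact p of any gene was 0.199. This limit comes from how rarely a member was found. A gene found in 3 ALS libraries and in no control reaches an exact permutation p of 0.0867 at any level, one found in 4 reaches 0.0325, and no member was found in more than 3 ALS libraries.

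The mean was higher in ALS for 32 of the 36 genes (88.9%), beside 86.5% of all genes, and lower for 4. The median difference over the 36 genes was 1.14, from −1.02 to 4.81, and that over all genes was 1.19. With the load of each library (its number of eccDNA-bearing genes) as a covariate, 17 of the 36 genes had a difference above 0 and the median difference was −0.54, against 52.8% and 0.34 over all genes. Load nearly separated the groups, since Control 1 (723 genes) was the only control above the lowest ALS library (ALS 6, 694 genes). This fit can thus hardly part load from group, and differences with the covariate, here and below, rest on extrapolation. Most genes rested on a single animal. Of the 36, 27 (75%) were found in 1 library only, beside 66.2% of all genes, and 3 (8.33%) in 3 or more, beside 15.3%. In ALS libraries only were found 29 genes (80.6%, beside 75.04% of all genes). In control libraries only were found 3 (8.33%, beside 10.9%), namely *Mrpl39*, *Mrps35* and *Ndufa10*. Both groups shared 4 (11.1%, beside 14.0%), namely *Atp5c1*, *Atp5j2*, *Chchd3* and *Mcu*. Where an eccDNA was present, the level of these genes had a median of 10.05 in ALS (n = 43 values, from 6.38 to 17.54) and of 8.99 in controls (n = 7 values, from 6.06 to 13.69), and the medians over all genes were 8.84 and 8.72. Length scaling raises the level of short genes, and the 36 had a median length of 18.08 kb against 49.17 kb over table genes. Their split reads were fewer (median 4.5 against 7), so the higher levels do not mean more eccDNA.

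**Figure D2:**
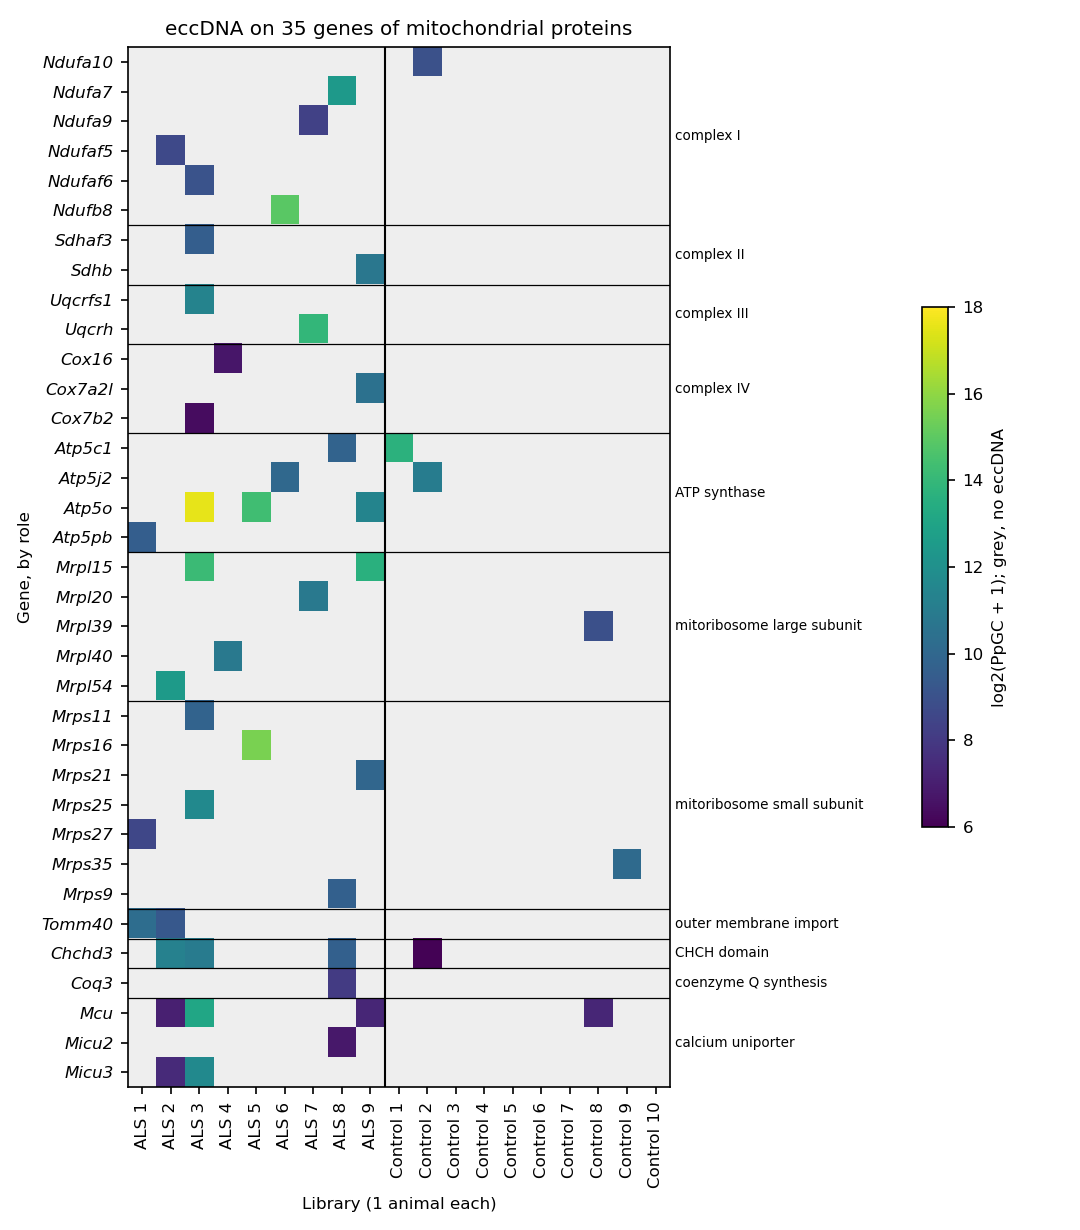
Level of eccDNA, as log2(PpGC + 1), on 35 of the 36 genes (rows, grouped by role) in the 9 ALS and 10 control libraries (columns), with grey where no eccDNA was found. Of the 48 coloured cells, 41 lie in ALS and 7 in control columns, and 27 rows have a single coloured cell.

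Complex I, the NADH dehydrogenase that starts the chain, had 6 of its 46 annotated genes in the table, each in 1 library. The accessory subunits *Ndufa7* and *Ndufb8* were at 12.50 in ALS 8 (18 split reads) and 14.95 in ALS 6 (49 reads), and *Ndufa9*, another accessory subunit, was at 8.34 in ALS 7 (2 reads). The assembly factors *Ndufaf5* and *Ndufaf6* were at 8.66 in ALS 2 and 9.05 in ALS 3, with 3 reads each. *Ndufa10* was found in Control 2 alone, at 8.99 (4 reads). No complex I gene was thus found in more than 1 animal of either group.

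Complex II, which feeds electrons from succinate, had *Sdhb*, its iron-sulfur subunit, at 10.75 in ALS 9 (7 reads), and the assembly factor *Sdhaf3* at 9.58 in ALS 3 (15 reads). Complex III, which passes electrons to cytochrome c, had *Uqcrfs1*, the Rieske iron-sulfur protein, at 11.36 in ALS 3 (3 reads), and *Uqcrh*, the hinge protein, at 13.95 in ALS 7 (29 reads). Complex IV, which reduces oxygen, had 3 of 27 genes, namely *Cox7a2l*, a factor of respiratory supercomplexes, at 10.49 in ALS 9 (5 reads), the assembly factor *Cox16* at 6.73 in ALS 4 (3 reads), and *Cox7b2* at 6.41 in ALS 3 (2 reads). These 7 genes were found in 1 ALS library each and in no control, in a table where 66.2% of all genes were in 1 library only and 75.04% in ALS libraries only.

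ATP synthase had 4 of 17 annotated genes in the table, and 2 of them were also found in a control library. *Atp5c1*, the gamma subunit of the rotor, was higher in its control library, at 13.69 in Control 1 (73 reads) against 9.82 in ALS 8 (5 reads), and its difference was −0.28 (exact permutation p = 1). *Atp5j2*, which encodes subunit f, was at 11.05 in Control 2 (4 reads) and 10.05 in ALS 6 (2 reads), a difference of 0.01. *Atp5pb*, the stator subunit b, was at 9.58 in ALS 1 (3 reads).

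*Atp5o*, which encodes the OSCP subunit that ties the stator to the catalytic head, had the largest difference of the 36 genes as deposited. It was at 17.54 in ALS 3 (278 reads), at 14.33 in ALS 5 (30 reads), at 11.42 in ALS 9 (4 reads) and at 0 in the 6 other ALS libraries and all 10 controls. The means were 4.81 ± 7.37 (SD, n = 9) and 0, a difference of 4.81 (exact permutation p = 0.0867, adjusted p = 0.581). The limma p was 0.0214 before adjustment, and after adjustment limma called none of the 36 genes. With the load as a covariate the difference was −0.79.

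The *Atp5o* values were scaled by a shorter gene model, while the reads of ALS 5 equal those of a gene under a longer one. GENCODE M21 lists 2 gene models of this name on the minus strand of chromosome 16 of mm10, one of 6474 bp at chr16:91925214-91931687 and one of 242585 bp at chr16:91684398-91926982. The longer model runs over *Cryzl1*, an oxidoreductase gene, and *Itsn1*, which encodes an endocytic scaffold protein, and both of these lie outside the shorter model. Only the shorter length returned whole split reads. In ALS 3 and ALS 9, *Itsn1* had 278 and 4 split reads, the same as *Atp5o*, and in ALS 5 *Cryzl1* had 30, again the same. *Itsn1*, which lies between *Cryzl1* and the shorter model, was at 0 in ALS 5. The data hold no circle coordinates, and whether the circles of ALS 3 and ALS 9 reach into the shorter model was not tested. The antisense gene D430001F17Rik at the other end of the shorter model was at 0 in all 3 libraries. Scaled by the longer model, which is 37.5 times as long, the same reads give levels of 12.31, 9.10 and 6.21 for ALS 3, 5 and 9, each lower by about 5.23, and the difference between the groups is 3.07 (exact permutation p = 0.0867), below the 3.09 of *Mrpl15*. Without length scaling it was 1.71, below the 1.98 of *Chchd3*. Several models share 1 name for 18 names of the gene list, and among the 36 genes this is the only one.

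**Figure D3:**
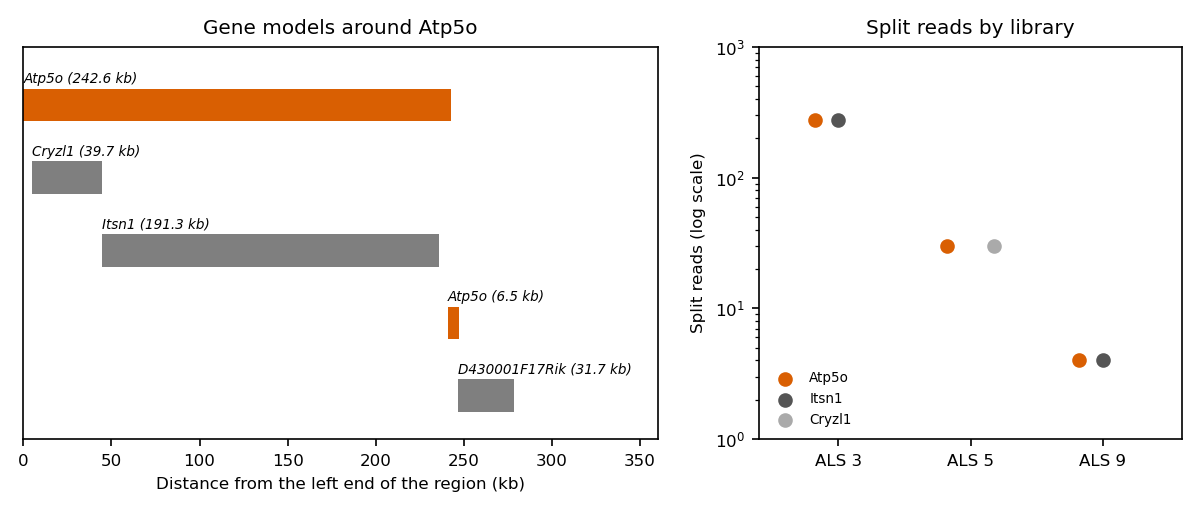
Left, the 2 gene models named *Atp5o* (orange) and the neighbouring genes (grey), in kb from the left end of the region. Right, split reads (log scale) on *Atp5o*, *Itsn1* and *Cryzl1* in the 3 libraries with an eccDNA on *Atp5o*, where the *Atp5o* point lies level with *Itsn1* in ALS 3 and ALS 9 and with *Cryzl1* in ALS 5.

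In 5 other genes the split reads also equalled those of an overlapping gene. These were *Cox16* with Gm20498 (3 reads), *Mrpl40* with Gm28539 (2 reads), *Ndufb8* with Gm20538 (49 reads), *Mrps27* with 6430562O15Rik (6 reads) and *Uqcrh* with the pseudogene Gm12854 (29 reads). An eccDNA counts for every gene it overlaps, so the same circles can count for both genes of a pair. *Cox16* and *Mrpl40* lie within their partners, the partners of *Mrps27* and *Uqcrh* lie within those genes, and *Ndufb8* overlaps Gm20538 in part. With *Atp5o*, 6 of the 36 genes and 8 of the 50 values had reads equal to those of another gene. For *Atp5o* alone, that gene lay outside the model used for scaling.

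The mitochondrial ribosome, which translates the mRNAs of the mitochondrial genome, gave the most genes, with 5 of 49 annotated genes of its large and 7 of 29 of its small subunit. *Mrpl15*, at chr1:4773206-4785739, was the only one found in more than 1 library. It was at 14.17 in ALS 3 (52 reads) and 13.64 in ALS 9 (36 reads) and at 0 in the other 17 libraries, a difference of 3.09 (exact permutation p = 0.211, adjusted p = 0.581), which was 1.70 without ALS 3, 1.77 without ALS 9 and −2.11 with the load as a covariate. *Mrps16* had the highest level of the group, 15.59 in ALS 5 (48 reads). *Mrpl54* was at 12.55 in ALS 2 with 3 reads, which shows how a gene of 2.222 kb reaches a high level from few reads. Of the rest, *Mrpl20*, *Mrpl40*, *Mrps11*, *Mrps21*, *Mrps25*, *Mrps27* and *Mrps9* were found in 1 ALS library each, at 8.56 to 11.72 (2 to 11 reads), while *Mrpl39* was at 8.93 in Control 8 (2 reads) and *Mrps35* at 10.15 in Control 9 (8 reads).

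Of 16 annotated Timm genes of the inner membrane import machinery (median length 5.95 kb), 0 had an eccDNA in any library. Of 10 annotated Tomm genes, 1 had one. Over all protein-coding genes the share was 6.22% up to 10 kb, 14.9% between 10 and 20 kb and 29.8% between 20 and 50 kb. Both families have genes in each of these classes, and the gene found, *Tomm40*, is 14.126 kb long. *Tomm40*, the pore of the outer membrane, was at 10.30 in ALS 1 (4 reads) and 9.30 in ALS 2 (2 reads), a difference of 2.18 (exact permutation p = 0.211). It was 1.16 without ALS 1, 1.29 without ALS 2 and −0.53 with the load as a covariate. *Coq3*, a methyltransferase of coenzyme Q synthesis and the only one of 11 Coq genes in the table, was at 8.10 in ALS 8 (2 reads).

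*Chchd3* encodes MIC19, a subunit of the MICOS complex that shapes the junctions of cristae, and it was the longest of the 36 genes (269.285 kb, chr6:32790976-33060260, minus strand). It was at 11.27 in ALS 2 (150 reads), 11.01 in ALS 3 (125 reads), 9.69 in ALS 8 (50 reads) and 6.06 in Control 2 (4 reads), and at 0 in the other 15 libraries. The 3 ALS values were thus all above the control value. The means were 3.55 ± 5.34 (SD, n = 9) and 0.61 ± 1.92 (SD, n = 10), a difference of 2.95 (exact permutation p = 0.141, adjusted p = 0.581). With the load as a covariate it was −3.75. It was the only one of 8 annotated Chchd genes with an eccDNA, and *Chchd6*, which encodes another MICOS subunit and is 212.507 kb long, had none.

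The calcium uniporter had 4 of its 6 annotated genes in the table, the highest share of any group. Over all protein-coding genes, 53.6% of those between 50 and 100 kb and 76.3% of those between 100 and 200 kb had an eccDNA. *Mcu*, the pore that lets calcium into the matrix (chr10:59446984-59616692), was at 13.08 in ALS 3 (331 reads, the most of any member), at 7.30 in ALS 9 (6 reads), at 7.04 in ALS 2 (5 reads) and at 7.30 in Control 8 (6 reads). Apart from ALS 3, the ALS values thus did not exceed the control value. The difference was 2.32 (exact permutation p = 0.249, adjusted p = 0.581), 1.06 without ALS 3 and −3.49 with the load as a covariate. Of its regulators, *Micu2* was at 6.75 in ALS 8 (2 reads) and *Micu3*, the form best known from nervous tissue, at 11.70 in ALS 3 (59 reads) and 7.41 in ALS 2 (3 reads). Neither of these was found in a control library. The 4 genes are long, from 78.85 kb (*Micu3*) to 169.71 kb (*Mcu*), and the median over all 6 annotated genes was 80.93 kb.

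ALS 3 had the most genes with an eccDNA of all libraries (2204). It held 11 of the 36 genes, a share of 0.499% that was below those of ALS 9 (0.541%), Control 2 (0.649%) and Control 8 (0.606%), and 881 of the 1382 split reads that the ALS group had on them, and its mitochondrial genes took 0.501% of its split reads on genes, against 0.00470% to 0.227% in the other ALS libraries. Of the 881 reads, 278 are those of *Atp5o* that equal the reads of *Itsn1*. The most reads in a control library were 73, all on *Atp5c1* in Control 1.

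Genes of mitochondrial proteins are short. M21 lists 235 protein-coding genes whose names follow the same rule, with a median length of 8.11 kb, against 17.40 kb for all 21924 protein-coding genes. Of the 235, 36 (15.3%) had an eccDNA in any library, against 6041 (27.6%) of all. By length class, up to 10 kb, 11 of 143 (7.69%) mitochondrial genes and 6.22% of all genes had an eccDNA. Between 10 and 20 kb 8 of 47 mitochondrial genes and 14.9% of all genes had one, between 20 and 50 kb it was 28% (7 of 25) and 29.8%, and between 50 and 100 kb 50% (5 of 10) and 53.6%. Above 100 kb the mitochondrial genes were few, with 4 of 8 from 100 to 200 kb and 1 of 2 above 200 kb, where 76.3% and 94.9% of all genes had an eccDNA.

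**Figure D4:**
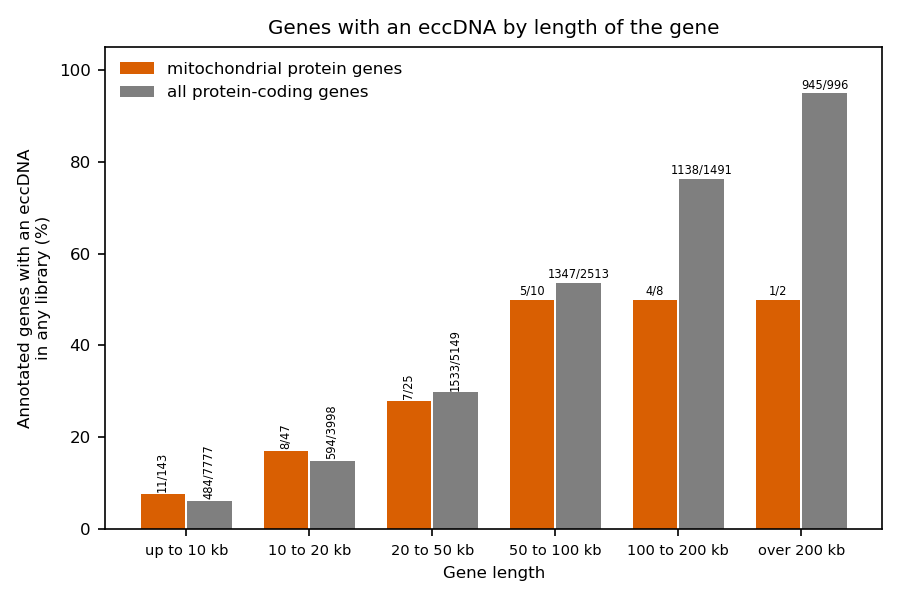
Percent of annotated genes with an eccDNA in any of the 19 libraries (bars from 0), by length class, for genes of mitochondrial proteins (orange) and all protein-coding genes (grey), with the counts above the bars. Both rise with length, from 7.69% and 6.22% up to 10 kb to 50% and 53.6% between 50 and 100 kb.

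Across the 36 genes, length and the number of libraries with an eccDNA had a Pearson r of 0.61 and a Spearman rho of 0.20, and across 8107 table genes with a gene model the values were 0.78 and 0.60. These are descriptions across genes that share libraries. The median gene body of the 36 genes had 45.3% G and C and 26.7% of bases masked as repeats, and that of the 199 genes without an eccDNA 46.7% and 22.7%. Over all protein-coding genes the medians were 43.5% and 25.2% with an eccDNA and 46.2% and 21.0% without. The genes lay on many chromosomes, 19 on chromosomes 2 to 9 and 17 on chromosome 1 and chromosomes 10 to 19. In ALS libraries the share of genes per chromosome varied more between libraries on chromosome 1 and chromosomes 10 to 19 (median chi-square over its degrees of freedom 7.38) than on chromosomes 2 to 9 (0.827). The X chromosome, which holds none of the 36 genes, varied as well (7.23). In control libraries the medians were 3.22 for chromosome 1 and chromosomes 10 to 19 and 0.946 for chromosomes 2 to 9, and X was at 0.715. The mean was higher in ALS for 17 of the 19 genes and for 15 of the 17.

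A further 207 names from 8 lists of nuclear genes of mitochondrial function outside the naming rule gave 48 genes in the table. Their mean was higher in ALS for 41 (85.4%, beside 86.5% of all genes) and lower for 7, with a median difference of 1.15, beside 1.19 over all genes. By the thresholds of the methods 1 of the 48 (2.08%) was called, beside 1.33% of all genes. This was *Immp2l*, which encodes a peptidase of the inner membrane and is 931.499 kb long. It was found in 6 ALS libraries and 1 control, with means of 4.68 ± 4.39 (SD, n = 9) and 0.34 ± 1.07 (SD, n = 10), a difference of 4.34 (exact permutation p = 0.00786, adjusted p = 0.581). With the load as a covariate its difference was 1.17 (p = 0.653, permutation of residuals). *Suclg2*, a subunit of succinyl-CoA ligase in the citric acid cycle, was found in 6 ALS libraries and 1 control, with a difference of 4.68 (exact permutation p = 0.0174). Its value in ALS 5 was 18.07 (15297 reads), the other 5 ALS values were 5.21 to 6.19 and the control value was 6.19, and without ALS 5 the difference was 3.08. With the load as a covariate it was 3.75 (p = 0.308, permutation of residuals). *Mtx2*, an outer membrane protein gene with a difference of 3.53, and *Slc25a46*, a carrier family gene with a difference of 2.90, were both found in 3 ALS libraries and no control (exact permutation p = 0.0867). Without ALS 1 the difference of *Mtx2* was 2.20. With the load as a covariate the differences were 1.68 for *Mtx2* and 0.94 for *Slc25a46*. No gene of these lists passed the thresholds once any one of 12 of the 19 libraries was left out (ALS 1, 2, 3 and 9, and Control 1, 2, 3, 5, 7, 8, 9 and 10), while the difference of *Immp2l* stayed between 3.403 and 4.926 over all 19 such fits, and none had an adjusted p under 0.05 by the methods' test, limma or the exact test.

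By list, where 86.5% of all genes had a higher mean, the citric acid cycle and pyruvate dehydrogenase had 12 of 28 names in the table. Of these 12, 11 had a higher mean in ALS. The SLC25 carrier family had 13 of 53, with 11 higher. Fusion, fission and quality control genes had 4 of 16, all with a higher mean, among them the fusion and fission genes *Mfn2* and *Dnm1l* in 1 ALS library each. Proteases and chaperones had 3 of 21, all higher. Maintenance of mitochondrial DNA and RNA had 5 of 33 with 4 higher, respiratory chain assembly 7 of 29 with 5 higher, calcium and ion transport 2 of 14 with 1 higher, and cristae genes 2 of 13, both higher. *Immp2l* among the proteases and chaperones was the only gene of the lists past both thresholds.

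**Figure D5:**
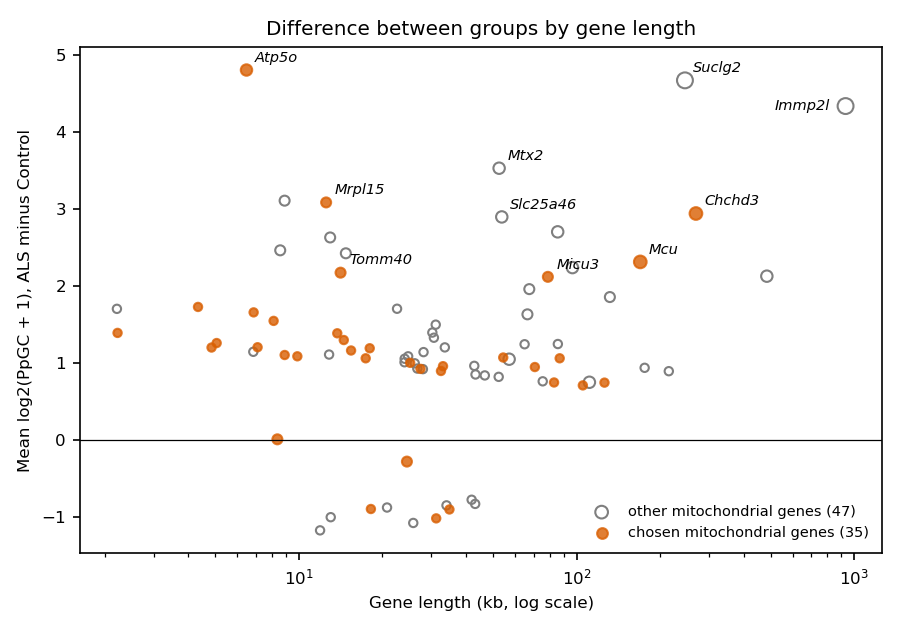
Difference of mean log2(PpGC + 1), ALS minus control (vertical axis), against gene length (horizontal axis, log scale) for 35 of the 36 genes (orange) and 47 further genes of mitochondrial function (open circles), where the area of a point grows with the number of libraries in which the gene was found. As deposited, *Atp5o* lies highest of the orange points at 4.81 (3.07 with its longer gene model), and the other genes drawn above 4, *Immp2l* and *Suclg2*, are among the longest.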

How the data were processed

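Libraries were mapped to groups by their titles, 9 ALS and 10 control, each from 1 animal. The authors mapped reads to mm10 with Circle_Finder, merged neighbouring eccDNAs, dropped those under 2 split reads, intersected the rest with GENCODE genes with bedtools, and deposited log2 values, log2(PpGC + 1), with gene length taken into account and libraries left unscaled. Which GENCODE release they used is not given in the sources used here. The table holds no sequencing depth, which limits precision to an unknown degree, and 0 columns of other samples.

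The log2 values were used as deposited. Names were matched to GENCODE M21, and 98.9% of 13799 values above 0 gave whole split reads (tolerance 0.02). Groups were compared over all 8336 genes with the thresholds the methods state (difference above 1, Student p under 0.01), with the test taken as two-sided because the methods do not name its sides, with the two-sided exact permutation test over 92378 arrangements for single genes, limma as an alternative, and Benjamini-Hochberg adjustment over all genes. The rule named *Chchd3* and *Atp5o*, members past both thresholds, the 15 smallest exact p-values among members higher in ALS (ties by difference), the 5 most negative differences, the member of each family in most libraries, the 3 longest, and, of the other lists, genes past both thresholds and the 5 smallest exact p-values. For 2 genes under this rule no result is given here. All other genes were named after their values were seen. Other alternatives were a covariate for load, equal totals, presence or absence, values before length scaling, a pseudocount of 100, genes in at least 3 samples, chromosomes 2 to 9 and X, a replicate block and leaving out each library. Members and lists were chosen with earlier results of these data known. On simulated data with 8336 genes the Student rule called 182 of 200 planted differences of 2 and 41 of 8136 unchanged genes. How often the rule calls genes found in few libraries, such as the members, was not tested. Software was Python 3.11.15 (NumPy 2.4.6, SciPy 1.17.1, pandas 2.3.3, matplotlib 3.10.9) and R 4.3.3 (limma 3.58.1).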

Additional observations from a re-analysis of the deposited data

Results flagged for a closer look

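Within a group, the gap between the highest or lowest library and its nearest neighbour was divided by the range of the group. This ratio was held against Dixon's critical value, 0.493 for the 9 ALS and 0.466 for the 10 control libraries. Chance passes it in about 1 of 20 groups of normally distributed values. The gene levels hold many zeros, so that rate does not carry over, and a gene found in 1 library of a group passes by construction. Of 44 groups of values 26 passed, each through its highest library. For 22 of these the ratio was 1, because the gene was found in a single library of the group and the others were at 0. In ALS these were *Atp5c1*, *Atp5j2*, *Coq3*, *Cox7a2l*, *Mrpl20*, *Mrpl54*, *Mrps16*, *Mrps25*, *Ndufa7*, *Ndufb8*, *Sdhb*, *Uqcrfs1* and *Uqcrh*. In controls they were *Atp5c1*, *Atp5j2*, *Chchd3*, *Mcu*, *Mrpl39*, *Mrps35*, *Ndufa10*, *Immp2l* and *Suclg2*.

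Among ALS libraries, ALS 3 lay apart in the split reads on the 36 genes (881, ratio 0.816) and in their percent of all split reads on genes (0.501%, ratio 0.553). Among the controls, Control 1 lay apart with 73 split reads on the 36 genes (ratio 0.836). *Suclg2* lay apart in its highest ALS library (ratio 0.657).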

How the results depend on the processing

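No member passed the thresholds in either direction under any of the 31 alternatives, and leaving out each library gave 26 to 32 members with a higher mean. With the load as covariate 17 members had a higher mean, the median difference was −0.54, and *Atp5o* (−0.79), *Chchd3* (−3.75), *Mcu* (−3.49), *Micu3* (−3.44), *Mrpl15* (−2.11), *Mrps25* (−4.10, unadjusted p = 0.030 by permutation of residuals), *Tomm40* (−0.53) and *Uqcrfs1* (−3.98, p = 0.030) turned negative, *Atp5c1* went from −0.28 to −4.32, and *Mrps16* (1.73 to 3.22), *Uqcrh* (1.55 to 2.95) and *Ndufb8* (1.66 to 6.30, p = 0.026) lay further above 0. *Mrps25* and *Uqcrfs1* were found in ALS 3 alone, the library with the highest load (2204 genes). *Ndufb8* was found in ALS 6 alone, the ALS library with the lowest load (694 genes). For a gene in 1 library, sign and p in this fit follow from the load of that library. Without the covariate each of these 3 genes had an exact permutation p of 0.474. With the same covariate *Cox7a2l* (1.17 to 2.19), *Mrpl20* (1.21 to 2.30) and *Sdhb* (1.19 to 2.24) also rose. *Coq3* (0.90 to 0.33) and *Ndufa7* (1.39 to 0.51) fell, and *Ndufa10* went from −0.90 to −1.90. *Atp5j2*, near 0, turned negative with equal totals (−0.40), no length scaling (−0.056), a pseudocount of 100 (−0.054) and the replicate block (−0.11), and was 1.89 with the load as covariate. The median difference was 0.22 without length scaling, 0.38 with a pseudocount of 100 and 2.95 over the 3 members in at least 3 samples, all with a higher mean, which gave 0.80 more member genes per ALS library. These 3 members were each in 3 ALS libraries and at most 1 control. They passed this filter only through ALS libraries, so their higher mean is largely set by the filter. On chromosomes 2 to 9 and X, 17 members had a higher mean. The length correlation was 0.37 with log10 length, 0.93 over the 3 members in at least 3 samples, 0.75 on chromosomes 2 to 9 and X, and 0.52 in ALS samples. The 0.93 rests on 3 genes found in 3 or 4 libraries, with *Atp5o* at the length of its shorter model, and carries little weight. Leaving out each library gave −1.37 to 1.09 for *Atp5c1* and −1.11 to 1.12 for *Atp5j2*, and 14 named members were at 0 everywhere once their only library was left out. Of the other mitochondrial genes, limma called 3 and a p under 0.05 called 4, and 0 were called with the replicate block, adjusted p, load as covariate, equal totals, presence or absence, no length scaling or a pseudocount of 100, and 0 to 2 with 1 library left out. The difference of *Immp2l* itself was 4.30 with the replicate block (exact permutation p = 0.047), 3.59 with equal totals (0.026), and 3.12 without length scaling and 1.19 with a pseudocount of 100 (both 0.0055). On chromosomes 2 to 9 and X the count was 0 by construction, since *Immp2l*, the gene called, lies on chromosome 12. Replicate numbers did not pair the samples (correlations −0.021 to 0.023), and the replicate block gave a median difference of 1.14. Chosen after seeing the data, leaving out *Atp5o* gave a median difference of 1.11 and 3.74 more member genes per ALS than control library (4.08 with it), and leaving out ALS 3, Control 1 and Control 2 together gave 3.63. Beyond the part that load plays by construction for genes found in 1 library, why values moved was not tested.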
